A study of Mus musculus with 25 samples.

Results

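The genes described here are the 7 that carry creatine synthesis, creatine uptake and the phosphocreatine cycle: Gatm, Gamt, Slc6a8, Ckb, Ckmt1, Ckmt2 and Alpl. They were chosen by name, as the genes of creatine-driven, UCP1-independent thermogenesis, and are 7 of the 54752 genes counted. RNA was measured by sequencing in 25 libraries of white adipose tissue from male C57BL/6N mice, 14 from the epididymal depot (eWAT) and 11 from the inguinal depot (iWAT). Each depot holds 3 groups, which are wild type mice on normal chow (WT ND), wild type mice on a high-fat diet with 60% of calories from fat (WT HFD) and Acod1-/- mice on that high-fat diet (Acod1-/- HFD, drawn as KO HFD in the plots). The groups have 4, 5 and 5 libraries in eWAT and 3, 5 and 3 in iWAT, in that order. The high-fat diet began at 5 weeks of age and lasted 16 weeks, except that the labels give 17 and 18 weeks for iWAT Acod1-/- HFD libraries 2 and 3. Acod1, which encodes the enzyme that makes itaconate, is deleted in every cell of the knockout line, and no chow-fed knockout group is among the libraries, so the effect of the deletion on a chow diet is not analysed here. The study gives the libraries of a group as mice of a single experiment. Whether an eWAT and an iWAT library of the same number come from the same mouse is not given in the sources used here.

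Creatine is made in 2 steps. GATM, a mitochondrial enzyme, joins the amidino group of arginine to glycine, and GAMT then methylates the product with S-adenosylmethionine. SLC6A8 carries creatine into cells. The cytosolic kinase CKB and the mitochondrial kinases CKMT1 (ubiquitous) and CKMT2 (sarcomeric, mostly of muscle and heart) move phosphate between ATP and creatine. In thermogenic fat cells phosphocreatine can be hydrolysed again without useful work, which burns ATP as heat beside the proton leak of UCP1, and ALPL, the tissue-nonspecific alkaline phosphatase, is one phosphatase described as doing so.

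Levels are given as CPM, the reads counted on a gene per 1000000 reads of the library's normalised total. Libraries held from 31.4 M to 52.3 M counted reads. The adipose label held in each of them, with a summed level of 7 mature adipocyte genes between 20300 and 52218 CPM. Acod1 could not serve as a check of the labels, since its highest count in a library was 9 in both WT HFD groups and 2 in both Acod1-/- HFD groups. Some libraries held markers of a neighbouring tissue. The summed level of 12 skeletal muscle genes was 10837 CPM in iWAT WT ND 1 and between 36.6 and 660 CPM in the other iWAT libraries, that of 10 mammary and skin epithelium genes was 529 CPM in iWAT Acod1-/- HFD 2 and at most 52.3 CPM in the other iWAT libraries, and that of 10 epididymis genes was 9038 CPM in eWAT WT ND 2 and at most 1267 CPM in the other eWAT libraries. The library numbers in the file headers fall into 2 series, 14 libraries in the first and 11 in the second. All WT ND libraries are in the second, so diet and series can be told apart only through eWAT WT HFD 5, eWAT Acod1-/- HFD 5, iWAT WT HFD 5 and iWAT Acod1-/- HFD 3, the HFD libraries of the second series.

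In GRCm38 the synthesis enzymes lie on chromosome 2 from 122594467 to 122611303 (Gatm, ENSMUSG00000027199) and on chromosome 10 from 80258151 to 80261012 (Gamt, ENSMUSG00000020150). The transporter Slc6a8 (ENSMUSG00000019558) lies on chromosome X from 73673150 to 73682502. The kinases lie on chromosome 12 from 111669361 to 111672338 (Ckb, ENSMUSG00000001270), on chromosome 2 from 121357714 to 121363737 (Ckmt1, ENSMUSG00000000308) and on chromosome 13 from 91853387 to 91876885 (Ckmt2, ENSMUSG00000021622), and Alpl (ENSMUSG00000028766) lies on chromosome 4 from 137741733 to 137796384. Reads were counted over whole genes, and 5 of the 7 passed the filter of a mean of 1 CPM in eWAT and 6 in iWAT and over all 25 libraries.

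The promoters of Ckb, Gatm and Gamt are shown because Ckb and Gatm changed together in eWAT and Gamt did not change with them between genotypes. RefSeq windows of 250 bases before to 50 after a transcription start (GRCm38.p6) were found for Ckb, Ckmt1, Ckmt2, Gatm, Gamt and Alpl, 6 of the 7 genes, with 8 windows in all. The 250 bases before the start are printed 5′ to 3′ on the gene's strand, in lower case, with matches to 8 searched motifs in capitals, and lie at chr12:111672339-111672588 for Ckb, chr2:122611278-122611527 for Gatm and chr10:80261013-80261262 for Gamt, all on the minus strand.
Ckb: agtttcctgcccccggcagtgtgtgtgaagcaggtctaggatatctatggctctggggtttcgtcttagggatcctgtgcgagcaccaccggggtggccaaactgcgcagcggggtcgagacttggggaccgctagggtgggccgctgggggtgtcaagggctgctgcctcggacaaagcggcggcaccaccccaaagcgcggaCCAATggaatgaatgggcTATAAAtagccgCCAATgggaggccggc
Gatm: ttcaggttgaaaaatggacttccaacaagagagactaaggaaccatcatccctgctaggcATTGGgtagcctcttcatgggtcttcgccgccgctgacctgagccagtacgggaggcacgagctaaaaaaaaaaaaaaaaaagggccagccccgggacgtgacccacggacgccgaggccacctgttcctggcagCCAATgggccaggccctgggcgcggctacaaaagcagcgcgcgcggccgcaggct
Gamt: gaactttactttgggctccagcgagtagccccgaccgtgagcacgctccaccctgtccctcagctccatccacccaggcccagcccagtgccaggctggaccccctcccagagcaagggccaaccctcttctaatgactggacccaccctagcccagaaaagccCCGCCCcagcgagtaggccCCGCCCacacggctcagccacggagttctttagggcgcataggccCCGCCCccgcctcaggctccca
In the Ckb window the TATA box (TATAAA) covers positions -28 to -23, counted back from the base before the start, and CCAAT boxes (CCAAT) start at -46 and -16. The Gatm window has no TATA box and holds CCAAT boxes from -190 to -186, read on the other strand, and from -55 to -51. The Gamt window holds GC boxes (GGGCGG, here read on the other strand) that start at -86, -67 and -22 and another that starts at 38 after the start, and neither a TATA nor a CCAAT box. Of all 32851 windows, searched on both strands, 13.6% held TATAAA, 37.4% held CCAAT and 35.7% held GGGCGG. The other 5 motifs were the E-box CACGTG (7.15% of all windows), the AP-1 site TGANTCA (7.81%), the CRE TGACGTCA (1.79%), the ERR element TCAAGGTCA (0.423%) and the PU.1 site GAGGAAGT (3.20%). None of these 5 was found in the 8 windows of the creatine genes, which says only that these letters are not in those windows.

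Per kilobase of the deposited cDNA length, Ckb and Gamt were the most abundant of the 7 transcripts in every group except iWAT WT ND. The lengths, 2895 bases for Ckb and 1444 for Gamt, were used as deposited and not checked against the transcripts present in fat. That of Ckb spans nearly its whole gene. The order of Ckb and Gamt depends on these lengths and is given for this scale only. In eWAT WT ND mice the mean levels were 24.4 CPM per kb for Gamt, 23.9 for Ckb, 6.01 for Slc6a8, 2.52 for Gatm, 1.33 for Alpl and 0.275 for Ckmt1, with Ckmt2 at 0. On this scale Gamt and Ckb, the neighbours at the top, did not differ beyond their spread there, with SDs of 10.1 CPM around 35.2 for Gamt and 12.04 around 69.2 for Ckb. In eWAT WT HFD mice the order was led by Ckb at 51.4 CPM per kb, followed by Gamt at 38.7, Slc6a8 at 10.6 and Gatm at 9.15. In eWAT Acod1-/- HFD mice Gamt, at 48.3 CPM per kb, stood above Ckb at 18.3, and in iWAT Gamt also stood first on the high-fat diet, at 29.4 in WT and 27.7 in Acod1-/- mice against 12.7 and 13.3 for Ckb. The mean of Ckmt2 in iWAT WT ND mice, 9.76 CPM per kb, comes almost wholly from 1 library and is described with the muscle markers.

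**Figure D1:**
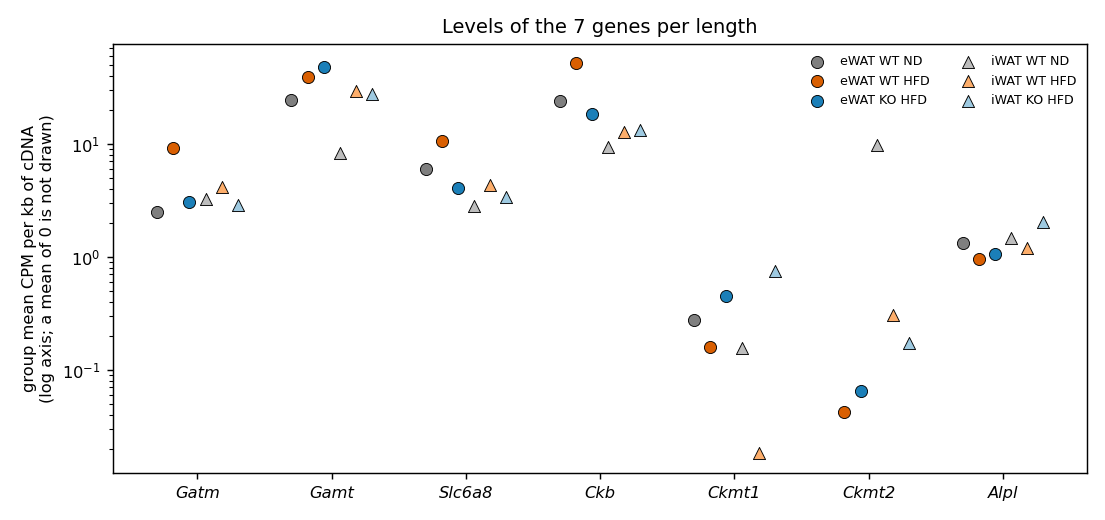
Mean level of each of the 7 creatine genes in CPM per kilobase of cDNA on a log axis, with circles for the 3 eWAT groups and triangles for the 3 iWAT groups, a mean of 0 (Ckmt2 in eWAT WT ND) not being drawn. Gamt and Ckb lie above the other genes in both depots on the high-fat diet, and Ckmt1 and Ckmt2 lie lowest except for Ckmt2 in iWAT WT ND at 9.76 CPM per kb.

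On the high-fat diet, wild type eWAT held more mRNA of the first enzyme of creatine synthesis and, less firmly, of the cytosolic kinase, the second enzyme and the creatine transporter. Only Gatm stayed called with the series of library numbers as a term in the fit. Gatm rose 3.63-fold and Ckb 2.15-fold, and for both every WT HFD library lay above every WT ND library, as was so for 17.3% of all genes tested. Slc6a8 and Gamt also passed the test, with groups that overlapped, and Alpl did not.

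Gatm was at 8.41, 6.69, 8.22 and 6.93 CPM in the 4 eWAT WT ND libraries and at 56.6, 25.6, 15.4, 27.5 and 12.3 CPM in the 5 WT HFD libraries. The chow-fed libraries were close together, while the HFD libraries ranged widely, with library 1 the highest and libraries 3 and 5 the lowest. The log2 fold change was 1.86 (SE 0.39, adjusted p = 0.00254 by edgeR's quasi-likelihood test, as are all adjusted p-values here unless said otherwise, called below 0.1). Without WT HFD 1 the fold change of Gatm was 1.42 on the log2 scale, and it passed the test without any single one of the 14 libraries.

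Ckb, the cytosolic creatine kinase, was at 83.6, 60.3, 58.3 and 74.4 CPM in WT ND eWAT and at 301, 126, 86.1, 144 and 87.0 CPM in WT HFD eWAT. Library 1 was again the highest and libraries 3 and 5 lay only just above the chow-fed range. Its log2 fold change of 1.10 (SE 0.33, adjusted p = 0.0157) fell to 0.68 without WT HFD 1, still called. Reads of Ckb carry an uncertainty of their own, since 9.98% of its 50-base stretches also occur in transcripts of its pseudogenes Ckb-ps1 and Ckb-ps2 and of Gm12892.

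Slc6a8, the creatine transporter, was at 41.02, 28.9, 27.7 and 27.6 CPM in WT ND eWAT and at 97.9, 61.9, 34.8, 46.6 and 36.1 CPM in WT HFD eWAT. WT ND 1 lay above HFD libraries 3 and 5, so the groups overlapped. The log2 fold change was 0.82 (SE 0.31, adjusted p = 0.0475), and it no longer passed without WT HFD 1 (0.52, adjusted p = 0.126), without WT ND 3 (adjusted p = 0.104) or without WT ND 4 (adjusted p = 0.110).

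Gamt, the methyltransferase of the second step, was at 33.0, 48.5, 35.1 and 24.0 CPM in WT ND eWAT and at 31.0, 41.1, 73.5, 56.1 and 77.8 CPM in WT HFD eWAT. The order within the HFD group was the reverse of that of Gatm at its ends, library 1 being the lowest for Gamt and library 5 the highest. Its log2 fold change of 0.67 (SE 0.31, adjusted p = 0.0983) was at the edge of the threshold, with an unadjusted p of 0.0506. The call was lost, with adjusted p between 0.108 and 0.239, when any of 9 of the 14 libraries was left out, namely WT ND 1, 3 and 4, WT HFD 3, 4 and 5 and Acod1-/- HFD 1, 4 and 5.

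Alpl, the phosphatase, was at 6.69, 3.82, 5.87 and 5.08 CPM in WT ND eWAT and at 1.30, 4.02, 4.43, 3.08 and 6.30 CPM in WT HFD eWAT, and the groups overlapped. Its log2 fold change was -0.49 (SE 0.40, adjusted p = 0.334). Ckmt1 and Ckmt2 lay below the filter of a mean of 1 CPM in eWAT. Ckmt1 was at 0.36, 1.38, 0.66 and 0.35 CPM in WT ND and at 0.33, 0.33, 0.27, 0.67 and 0.36 CPM in WT HFD eWAT (two-sided exact permutation test of mean log2 CPM, difference -0.58, p = 0.190, unadjusted, 1 of 12 such tests run on these genes). Ckmt2 was at 0 in all 4 WT ND libraries and had at most 9 counts in a WT HFD library (exact permutation p = 0.556).

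In all, 4 of the 5 genes tested in eWAT were called higher by diet and none lower, where 24.8% of the 14936 genes tested were called higher, 26.9% lower and 51.8% in either direction. The median log2 fold change of the 5 was 0.82, against -0.04 over all genes. With the series of library numbers as a term in the fit, Gatm remained called (1.72, adjusted p = 0.0365), while Ckb (0.82, adjusted p = 0.194), Slc6a8 (0.94, adjusted p = 0.141) and Gamt (0.87, adjusted p = 0.133) did not. Within the second series, the lone WT HFD library stood above all 4 WT ND libraries for Gatm (12.3 CPM), Ckb (87.0 CPM) and Gamt (77.8 CPM) and within their range for Slc6a8 (36.1 CPM), with no test possible on 1 library.

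**Figure D2:**
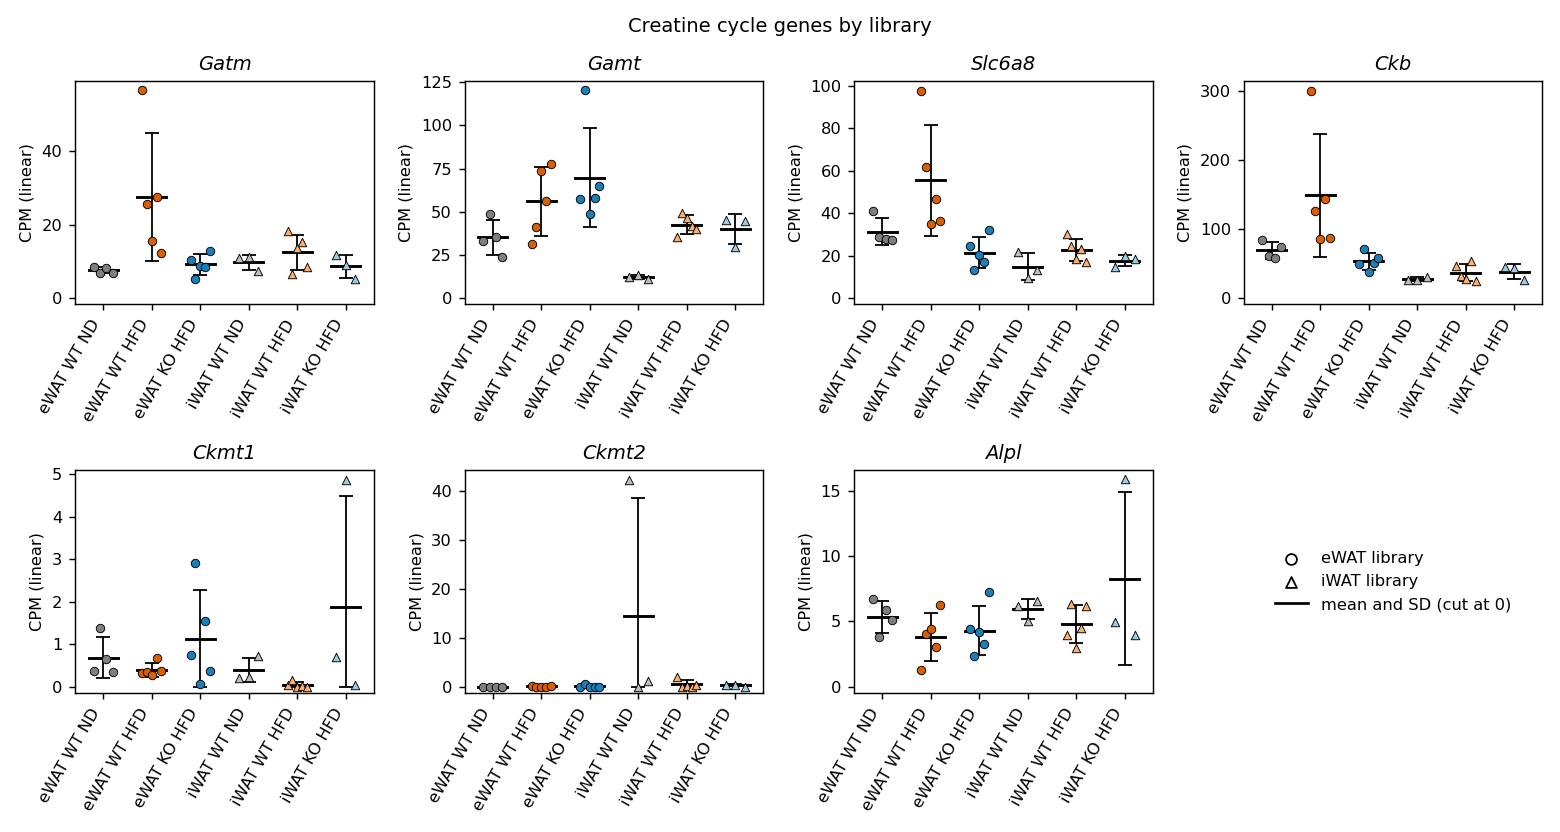
Level of each of the 7 creatine genes in every library, in CPM on linear axes that differ between panels, with circles for eWAT and triangles for iWAT and with lines for the group mean and SD (bars end at 0). In eWAT the 5 KO HFD libraries of Ckb and Slc6a8 lie below all WT HFD libraries, and in iWAT every HFD library of Gamt lies above the 3 chow-fed libraries.

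In HFD-fed mice, eWAT of Acod1-/- animals held 0.333 to 0.386 of the wild type level of Ckb, Gatm and Slc6a8, the kinase, the first enzyme of synthesis and the transporter. Gamt and Alpl did not pass the test. Of the 5 genes tested, 3 were called lower and none higher, where 10.8% of all genes tested were called lower, 9.13% higher and 19.9% in either direction.

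Ckb was at 49.7, 70.4, 37.2, 50.2 and 57.4 CPM in the 5 Acod1-/- HFD libraries, all below the lowest WT HFD library at 86.1 CPM. The level was 0.356 of that in WT HFD mice (log2 fold change -1.49, SE 0.31, adjusted p = 0.0132). Slc6a8 was at 24.5, 13.0, 20.3, 17.0 and 32.1 CPM, again all below the lowest WT HFD library at 34.8 CPM, and its level was 0.386 of that in WT HFD mice (log2 fold change -1.37, SE 0.30, adjusted p = 0.0144). Of all genes tested, 4.37% had every Acod1-/- HFD library below every WT HFD library.

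Gatm was at 10.3, 5.29, 8.72, 8.44 and 12.9 CPM in Acod1-/- HFD eWAT. Library 5 of the knockout group stood slightly above WT HFD 5 at 12.3 CPM, which is the only overlap. The level was 0.333 of that in WT HFD mice (log2 fold change -1.59, SE 0.35, adjusted p = 0.0158). Gamt was at 57.4, 120, 48.5, 57.7 and 64.6 CPM, with library 2 far above the rest and the range overlapping that of WT HFD mice (log2 fold change 0.32, SE 0.29, adjusted p = 0.505). Alpl was at 4.43, 2.34, 4.17, 3.25 and 7.28 CPM (log2 fold change 0.17, SE 0.38, adjusted p = 0.804). Ckmt1 was at 0.75, 2.91, 0.05, 1.54 and 0.37 CPM (exact permutation p = 0.373), and Ckmt2 reached 12 counts in library 2 and was at or near 0 in the others (exact permutation p = 0.921).

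The calls of Ckb, Gatm and Slc6a8 in this comparison stood without any single library. Over the 14 fits that each left out 1 library, the log2 fold change ran from -1.64 to -1.07 for Ckb, from -1.77 to -1.16 for Gatm and from -1.58 to -1.08 for Slc6a8. Among HFD libraries of the first series of numbers alone, the log2 fold changes were -1.68 for Ckb (adjusted p = 0.0120), -1.93 for Gatm (adjusted p = 0.00858) and -1.69 for Slc6a8 (adjusted p = 0.00724). In the second series each group has 1 eWAT HFD library, WT HFD 5 and Acod1-/- HFD 5, with Ckb at 87.0 and 57.4 CPM, Slc6a8 at 36.1 and 32.1 CPM and Gatm at 12.3 and 12.9 CPM, without a test.

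Set against chow-fed wild type mice, eWAT of HFD-fed Acod1-/- mice differed in 1 of the 5 tested genes, Gamt, where 13.5% of all genes were called higher, 13% lower and 26.5% in either direction. Gamt had a mean of 69.7 CPM ± 28.8 (SD, n = 5) in Acod1-/- HFD mice and 35.2 CPM ± 10.1 (SD, n = 4) in WT ND mice. The groups met at 48.5 CPM, and the log2 fold change was 0.98 (SE 0.32, adjusted p = 0.0484). The call was lost without Acod1-/- HFD 2 (0.70, adjusted p = 0.117), without WT ND 1 (adjusted p = 0.109) or WT ND 4 (adjusted p = 0.124), and with the series of library numbers as a term (1.21, adjusted p = 0.131). The log2 fold changes of Ckb (-0.39, SE 0.32, adjusted p = 0.407), Gatm (0.27, SE 0.37, adjusted p = 0.621), Slc6a8 (-0.55, SE 0.31, adjusted p = 0.221) and Alpl (-0.32, SE 0.40, adjusted p = 0.591) did not pass the test, which does not show that the levels were equal. This comparison differs in diet and genotype together, and it shares its libraries with both comparisons above.

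**Figure D3:**
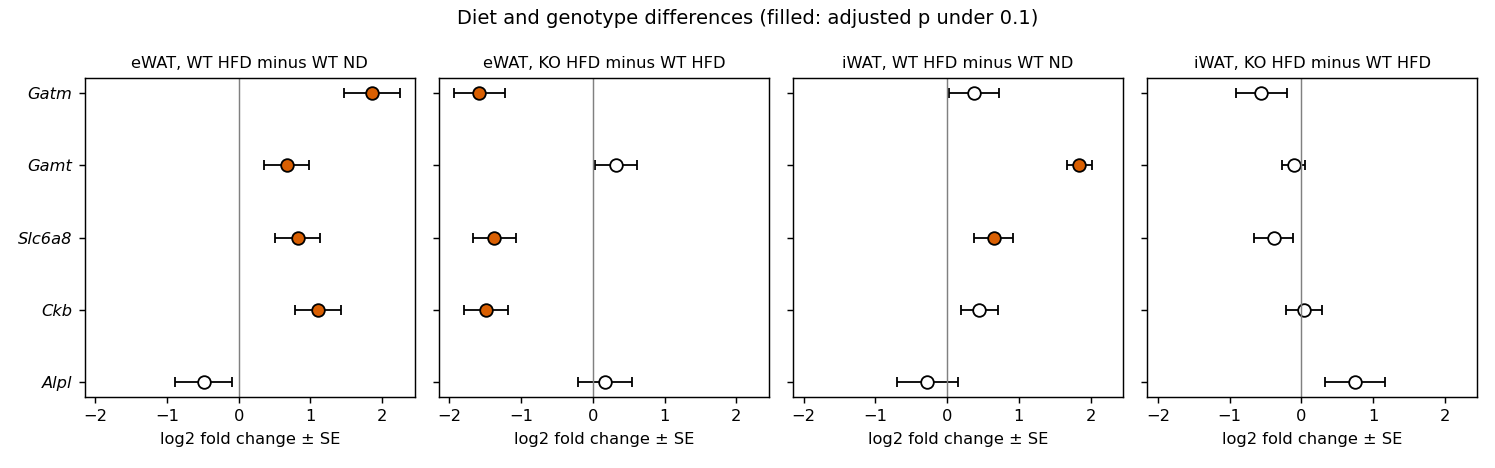
Fitted log2 fold change, with bars of 1 SE to either side, of Gatm, Gamt, Slc6a8, Ckb and Alpl for diet (WT HFD minus WT ND) and genotype (KO HFD minus WT HFD) in each depot, with filled points for adjusted p under 0.1. In eWAT Ckb, Gatm and Slc6a8 lie above 0 for diet and below 0 for genotype, 2 comparisons that share the WT HFD libraries, and Gamt lies above 0 for diet in both depots.

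Markers of macrophages moved with Ckb, Gatm and Slc6a8 between the eWAT groups. The summed level of 7 macrophage genes (Adgre1, Cd68, Csf1r, Trem2, Itgax, Lyz2 and Mrc1) was 734, 374, 469 and 380 CPM in the WT ND libraries, 3809, 2645, 1431, 3033 and 1145 CPM in the WT HFD libraries and 590, 306, 342, 506 and 1193 CPM in the Acod1-/- HFD libraries. All 7 macrophage genes were called higher by diet (median log2 fold change 2.87) and all 7 lower by genotype (median -2.48), and none of the 7 was at 0 in any eWAT group. Within the WT HFD group, macrophage sums were highest in libraries 1, 4 and 2 in that order, as were Ckb and Gatm. Slc6a8 was highest in libraries 1, 2 and 4, in that order. Gamt was lowest in library 1. Within the Acod1-/- HFD group, Ckb was highest in library 2, at 70.4 CPM, which had the lowest macrophage sum. Gatm and Slc6a8 were lowest in that library and highest in library 5, which had the highest sum.

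The knockout library with the highest macrophage sum, Acod1-/- HFD 5 at 1193 CPM, lay beside WT HFD 5 at 1145 CPM. In this pair, picked after the values were seen, Ckb was at 57.4 and 87.0 CPM, Gatm at 12.9 and 12.3 CPM and Slc6a8 at 32.1 and 36.1 CPM. Of 6 fibroblast and progenitor markers, 5 were called higher by diet and 4 lower by genotype in eWAT. Their summed level was 5497, 3680, 2914, 4681 and 2833 CPM in WT HFD libraries 1 to 5. This ranked the 5 libraries in the same order as the macrophage sums. Of 5 brown adipocyte genes tested, 4 were called higher by diet (median log2 fold change 1.57, mean sums 17.6 and 41.7 CPM) and 1 lower by genotype. Of 7 mature adipocyte genes, 3 were called lower and 1 higher by diet, and 3 higher by genotype. The summed level of 7 mature adipocyte genes was 20300 CPM in WT HFD 1, the library with the highest Ckb, Gatm and Slc6a8, and between 29606 and 43566 CPM in the other WT HFD libraries. Neutrophil genes, 6 in all, had mean sums of 2.34, 34.8 and 14.4 CPM in WT ND, WT HFD and Acod1-/- HFD eWAT, and 6 endothelial genes 699, 421 and 502 CPM. Of the neutrophil genes only S100a8 passed the filter in eWAT. It was called higher by diet (log2 fold change 4.05, adjusted p = 0.00107) and was not called by genotype (-1.46, adjusted p = 0.116). The part of these cell types in the results for the creatine genes was not tested. In bulk tissue, fewer cells of a type and less RNA per cell cannot be told apart.

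**Figure D4:**
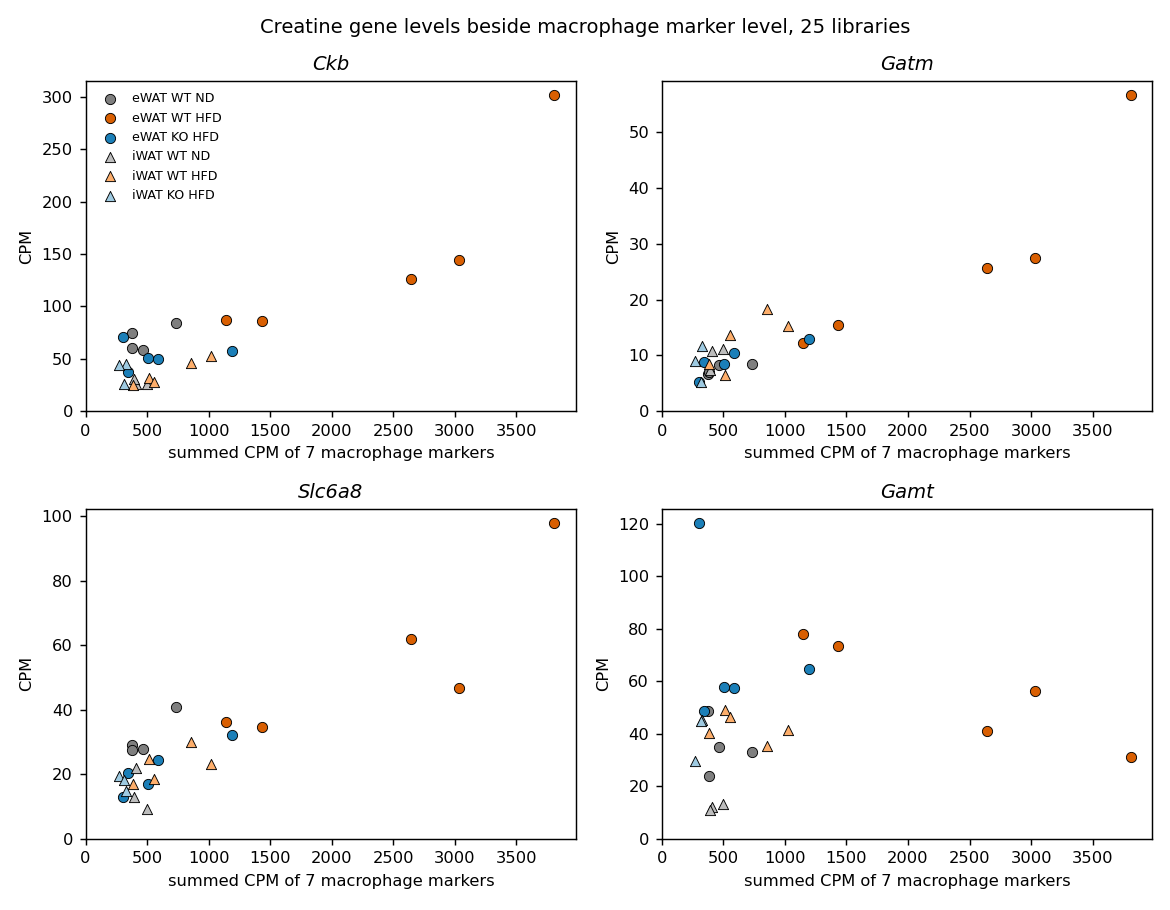
Level of Ckb, Gatm, Slc6a8 and Gamt in CPM against the summed CPM of 7 macrophage genes, on linear axes, with 1 point for each of the 25 libraries (circles eWAT, triangles iWAT) coloured by group. The eWAT WT HFD libraries run from 1145 to 3809 CPM of macrophage genes and the eWAT KO HFD libraries from 306 to 1193 CPM.

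In iWAT the creatine gene with the smallest adjusted p for diet was Gamt, the second enzyme of creatine synthesis. Gamt rose 3.59-fold, with every WT HFD library above every WT ND library, Slc6a8 passed the test with groups that overlapped, and the muscle-type kinase Ckmt2 was called lower through 1 chow-fed library. Ckb, Gatm and Alpl did not pass. Thus 2 of the 6 tested genes were called higher and 1 lower, where 25.9% of the 14801 genes tested were called higher, 24.2% lower and 50.1% in either direction.

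Gamt was at 11.9, 13.1 and 11.1 CPM in WT ND iWAT and at 35.3, 49.01, 46.5, 41.4 and 40.2 CPM in WT HFD iWAT. Both groups were tight and far from each other (log2 fold change 1.85, SE 0.17, adjusted p = 7.44e-05). Of all genes tested, 23.1% had every WT HFD library above every WT ND library. The call stood without any single one of the 11 libraries (1.76 to 1.91) and with the series of library numbers as a term (1.94, adjusted p = 0.00104), and the WT HFD library of the second series, at 40.2 CPM, lay well above the 3 chow-fed libraries.

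Slc6a8 was at 21.9, 9.29 and 13.1 CPM in WT ND iWAT and at 30.1, 24.8, 18.4, 23.1 and 16.9 CPM in WT HFD iWAT. WT ND 1, the library with muscle markers, lay inside the HFD range. The log2 fold change was 0.65 (SE 0.27, adjusted p = 0.0737), rose to 1.03 without WT ND 1, and did not pass without WT ND 2 (0.39, adjusted p = 0.276), WT ND 3 (0.54, adjusted p = 0.215), WT HFD 1 (0.53, adjusted p = 0.142), WT HFD 2 (0.60, adjusted p = 0.142) or WT HFD 4 (0.62, adjusted p = 0.124), nor with the series as a term (0.50, adjusted p = 0.330).

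Ckb was at 26.0, 25.6 and 30.4 CPM in WT ND iWAT and at 45.9, 31.4, 27.6, 53.0 and 25.3 CPM in WT HFD iWAT, with libraries 1 and 4 above and the others near the chow-fed range (log2 fold change 0.45, SE 0.26, adjusted p = 0.183). Gatm was at 10.8, 11.1 and 7.44 CPM and at 18.2, 6.45, 13.7, 15.2 and 8.47 CPM, and the groups overlapped (0.37, SE 0.35, adjusted p = 0.410). The same WT HFD libraries, 1 and 4, had the highest macrophage sums in iWAT, 859 and 1022 CPM against 384 to 557 CPM in the other WT HFD and 393 to 498 CPM in the WT ND libraries. WT HFD libraries 1 and 4 also had the highest fibroblast and progenitor sums of their group, 3143 and 4660 CPM. Of the 7 macrophage genes, 5 were called higher by diet in iWAT. Other cell type markers were called higher by diet there as well, beside Gamt and Slc6a8. They were 5 of 7 mature adipocyte genes (mean sums 26457 CPM in WT ND and 45139 CPM in WT HFD), 6 of 6 endothelial genes (457 and 726 CPM) and 5 of 6 fibroblast and progenitor genes (1141 and 3207 CPM), and their part in the change of Gamt was not tested. Alpl was at 6.15, 5.07 and 6.56 CPM and at 3.93, 6.35, 2.96, 4.52 and 6.21 CPM (-0.28, SE 0.42, adjusted p = 0.624).

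No creatine gene differed by genotype in iWAT by the test, and neither did any gene at all, 0 of 14801 (0%) by edgeR, where 2468 genes had an unadjusted p under 0.05 and DESeq2 called 1072. None of the 6 creatine genes had an unadjusted p under 0.05 or was called by DESeq2. Ckb was at 44.9, 44.2 and 25.9 CPM in Acod1-/- HFD iWAT (log2 fold change 0.04, SE 0.25, adjusted p = 0.963) and Gamt at 45.3, 29.8 and 44.9 CPM (-0.11, SE 0.16, adjusted p = 0.786). Slc6a8 was at 14.8, 19.6 and 18.3 CPM (-0.39, SE 0.27, adjusted p = 0.494), Gatm at 11.6, 9.03 and 5.19 CPM (-0.56, SE 0.35, adjusted p = 0.455) and Alpl at 4.96, 15.9 and 3.98 CPM (0.75, SE 0.42, adjusted p = 0.395). For each of these 5 genes the ranges of the 2 HFD groups overlapped.

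Against chow-fed wild type iWAT, Gamt was higher in HFD-fed Acod1-/- iWAT (log2 fold change 1.74, SE 0.18, adjusted p = 0.000134), with the lowest knockout library at 29.8 CPM and the highest chow-fed library at 13.1 CPM, where 17.9% of all genes had the knockout group above in this way. It was the only creatine gene called higher, where 18.5% of all genes were, and Ckmt2 was the only one called lower, where 16.1% were (34.6% in either direction). The log2 fold changes of Ckb (0.49, SE 0.29, adjusted p = 0.232), Slc6a8 (0.26, SE 0.29, adjusted p = 0.543), Gatm (-0.18, SE 0.38, adjusted p = 0.757) and Alpl (0.48, SE 0.48, adjusted p = 0.488) did not pass the test.

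Between the depots, eWAT held more Ckb and Slc6a8 than iWAT in wild type mice on either diet, and no creatine gene passed the test between the depots of HFD-fed Acod1-/- mice. In WT ND mice, Ckb had a mean of 69.2 CPM ± 12.04 (SD, n = 4) in eWAT and 27.3 CPM ± 2.69 (SD, n = 3) in iWAT (log2 difference 1.34, SE 0.36, adjusted p = 0.00887). Gamt had 35.2 CPM ± 10.1 and 12.1 CPM ± 0.995 (1.54, SE 0.31, adjusted p = 0.00116), and Slc6a8 had 31.3 CPM ± 6.51 and 14.8 CPM ± 6.49 (1.08, SE 0.35, adjusted p = 0.0261). For these 3 genes every eWAT library lay above every iWAT library, as for 19% of all genes. They are the 3 called higher in eWAT of the 6 tested, with Ckmt2 called lower, where 17.5% of the 15034 genes tested were called higher, 14.2% lower and 31.7% in either direction. The call of Ckmt2 sets 0 counts in eWAT against 42.3, 0 and 1.20 CPM in iWAT, groups that overlap, and could not be tested without the muscle-rich iWAT WT ND 1. Slc6a8 did not pass without iWAT WT ND 2 (0.84, adjusted p = 0.158).

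In WT HFD mice, Ckb had 149 CPM ± 88.8 (SD, n = 5) in eWAT and 36.6 CPM ± 12.2 (SD, n = 5) in iWAT (log2 difference 2.02, SE 0.30, adjusted p = 0.000215), and Slc6a8 had 55.5 CPM ± 26.1 and 22.7 CPM ± 5.28 (1.29, SE 0.28, adjusted p = 0.00489), both with every eWAT library above every iWAT library, as for 7.03% of all genes. Gatm had 27.5 CPM ± 17.5 and 12.4 CPM ± 4.86, with depots that overlapped (1.15, SE 0.35, adjusted p = 0.0328), and was not called without eWAT WT HFD 1 (0.70, adjusted p = 0.178). Gamt, with 55.9 CPM ± 20.2 and 42.5 CPM ± 5.40, did not pass (0.40, SE 0.25, adjusted p = 0.321). These 3 genes called higher in eWAT of 6 tested stand against 10.8% of all genes called higher, 7.75% lower and 18.6% in either direction. The macrophage genes differed between the same libraries, with 7 of 7 called higher in eWAT (median log2 difference 2.35). In HFD-fed Acod1-/- mice none of the 6 tested creatine genes was called between depots by edgeR or by DESeq2, 2 had an unadjusted p under 0.05, and 3.81% of all genes were called (2.01% higher and 1.8% lower in eWAT). Gamt had the smallest adjusted p of the 6 there (log2 difference 0.80, SE 0.29, adjusted p = 0.191), and its lowest eWAT library, at 48.5 CPM, lay above its highest iWAT library, at 45.3 CPM, an order that 3.39% of all genes showed.

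Whether the response to diet itself differed between depots was tested as an interaction in a fit of all 25 libraries. Gatm responded more in eWAT (difference of log2 fold changes 1.52, SE 0.54, adjusted p = 0.0472) and Gamt more in iWAT (-1.15, SE 0.39, adjusted p = 0.0406). Gatm rose from 7.56 to 27.5 CPM in eWAT means and stood at 9.77 and 12.4 CPM in iWAT, while Gamt stood at 35.2 and 55.9 CPM in eWAT and rose from 12.1 to 42.5 CPM in iWAT. Ckmt2 was called too, with mean levels of 14.5 and 0.456 CPM in iWAT and of 0 and 0.0626 CPM in eWAT. Thus 2 of the 6 tested genes had a positive interaction (eWAT minus iWAT) and 1 a negative one that passed, where 14% and 15% of all genes did, 29% in all. The call of Gatm was lost without eWAT WT HFD 1 (1.07, adjusted p = 0.113) or iWAT WT ND 2 (1.42, adjusted p = 0.113). Without the 3 libraries high in muscle, epithelium or epididymis genes, a fit added after the data were seen, neither Gatm (1.43, adjusted p = 0.120) nor Gamt (-0.91, adjusted p = 0.140) passed. The interactions of Ckb (0.68, SE 0.45, adjusted p = 0.295), Slc6a8 (0.21, adjusted p = 0.777) and Alpl (-0.18, adjusted p = 0.867) did not pass.

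The genotype effect on Ckb was called in eWAT and not in iWAT, but the difference between them did not pass the test over all genes (interaction -1.56, SE 0.43, unadjusted p = 0.00157, adjusted p = 0.303). That of Slc6a8 was -1.01 (SE 0.42, adjusted p = 0.425) and that of Gatm -1.06 (adjusted p = 0.506). Of the 6 creatine genes, 2 had an unadjusted p under 0.05 and none was called by edgeR, where 1 gene of 15034 (0.00665%) was called in all. DESeq2 called 96 genes, among them Ckb, and edgeR called Ckb without iWAT Acod1-/- HFD 3 (-1.80, adjusted p = 0.0602).

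Both mitochondrial creatine kinases were low. Ckmt1 had counts in every eWAT library, and its group means ran from 0.0455 CPM in WT HFD iWAT to 1.87 CPM in Acod1-/- HFD iWAT. Ckmt2 was at or near 0 in most libraries and high in iWAT WT ND 1. Ckmt2 was at 42.3, 0 and 1.20 CPM in WT ND iWAT, at 1.95, 0, 0.05, 0 and 0.28 CPM in WT HFD iWAT and at 0.36, 0.38 and 0.02 CPM in Acod1-/- HFD iWAT. A single library, WT ND 1 with 1807 counts, carried Ckmt2 over the filter and made it testable in iWAT. The same library held the skeletal muscle markers, and the muscle creatine kinase Ckm was at 806 CPM there, at 0 in WT ND 2 and at 41.7 CPM in WT ND 3. Ckmt2 was called lower by diet in iWAT (log2 fold change -4.95, SE 1.81, adjusted p = 0.0479) and lower in Acod1-/- HFD than in WT ND iWAT (-5.83, SE 2.38, adjusted p = 0.0931), but without WT ND 1 it fell below the filter and could not be tested. By genotype its log2 fold change in iWAT was -0.88 (SE 1.98, adjusted p = 0.870). A small part of Ckmt2 (2.51% of its 50-base stretches) is shared with the antisense gene 1700119I11Rik.

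Ckmt1, of which the other strand carries the overlapping gene Strc, was at 0.21, 0.23 and 0.73 CPM in WT ND iWAT, at 0.05, 0.15, 0, 0.02 and 0 CPM in WT HFD iWAT and at 0.69, 4.86 and 0.05 CPM in Acod1-/- HFD iWAT. The knockout library at 4.86 CPM, library 2 with 154 counts, is the one with the high sum of mammary and skin epithelium markers, and it also held the highest Alpl of all 25 libraries, 15.9 CPM. Of these 10 markers, 4 were at 0 in all libraries of its group. By genotype in iWAT the log2 fold change was 9.69 for Krt14, 6.21 for Krt5 and 5.12 for Epcam. It was 0.42 for Krt8 and 0.28 for Krt18, and none of these markers was called. The exact permutation test of WT HFD against WT ND iWAT gave a difference of -2.28 in mean log2 CPM for Ckmt1 (p = 0.0357, unadjusted, where the smallest p of 5 against 3 libraries is 0.0179), and p lay between 0.0571 and 0.0952 without any 1 of these libraries. That of eWAT against iWAT in WT HFD mice gave a difference of 2.43 (p = 0.00794, unadjusted, the smallest p that 5 against 5 libraries allow in the exact test). The HFD groups of iWAT gave p = 0.107 for genotype by the same exact test. Without the epithelium-rich library and WT ND 1, Alpl in iWAT had a log2 fold change of -0.12 by genotype, against 0.75 with all iWAT libraries. That fit holds only libraries 1 and 3 of the knockout group.

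**Figure D5:**
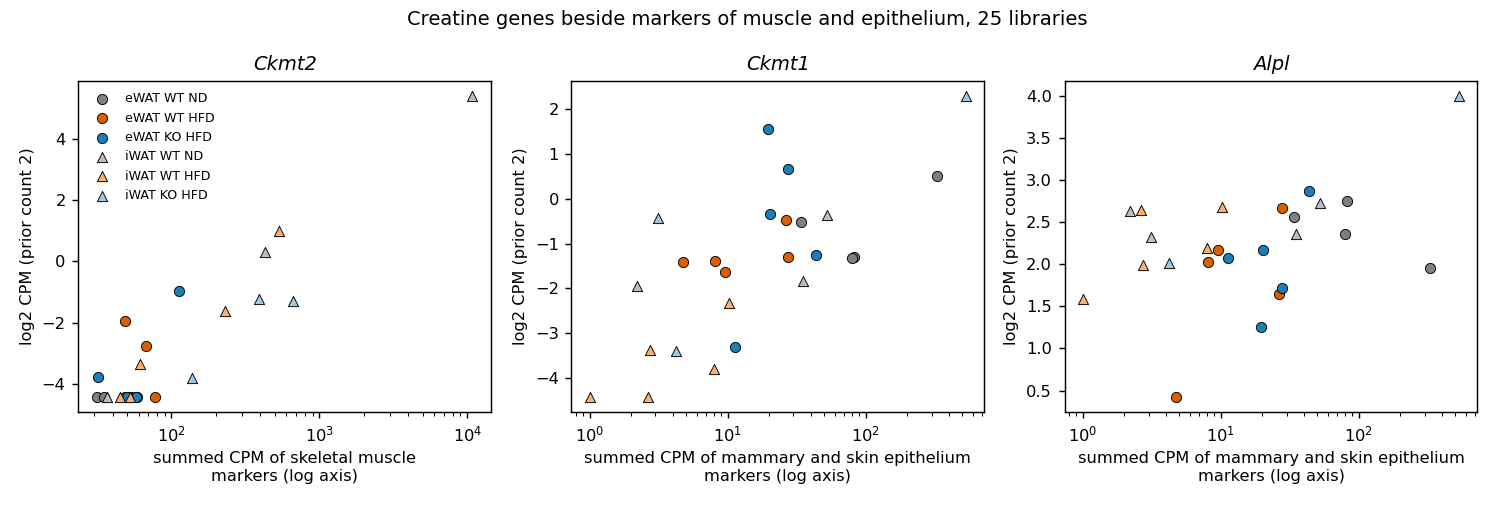
Log2 CPM (prior count 2) of Ckmt2 against the summed CPM of 12 skeletal muscle genes, and of Ckmt1 and Alpl against that of 10 mammary and skin epithelium genes, both sums on log axes, with 1 point for each of the 25 libraries (circles eWAT, triangles iWAT). The iWAT library WT ND 1 stands alone at 10837 CPM of muscle genes, and iWAT KO HFD 2 has the highest sum of epithelium genes, 529 CPM, before eWAT WT ND 2 at 327 CPM.

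The genes around the pathway were taken from 4 further lists, set by function. Of 14 tested genes that supply arginine, glycine and methyl groups, 2 were called higher and 2 lower by diet in eWAT, against 24.8% and 26.9% of all genes. These were Arg1, an arginase of macrophages and liver (log2 fold change 3.47, adjusted p = 0.00254), and the methionine adenosyltransferase Mat1a (5.38, adjusted p = 0.00912) against the arginase Arg2 (-3.60, adjusted p = 0.0681) and the methionine adenosyltransferase Mat2a (-0.86, adjusted p = 0.000974). None of the 14 was called by genotype in eWAT, where 19.9% of all genes were. In iWAT, 4 of 13 were called higher by diet and 1 lower, against 25.9% and 24.2% of all genes. Gnmt, the glycine methyltransferase that also uses S-adenosylmethionine, rose with a log2 fold change of 3.55 (adjusted p = 0.00187) and Arg1 with 4.20 (adjusted p = 0.0135), while Mat1a was at 0 in the 3 WT ND libraries and between 4.53 and 33.1 CPM in the WT HFD libraries.

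Among kinases and carriers that exchange high-energy phosphate, 3 of 10 tested genes were called higher by diet in eWAT and none lower, against 24.8% and 26.9% of all genes, among them adenylate kinase Ak1 (log2 fold change 0.52) and the ADP/ATP carrier Slc25a5 (0.42). In iWAT 3 of 11 were called higher by diet, against 25.9% of all genes, among them Slc25a5 (0.55) and Ak3 (0.64), and Ckm (-4.59, adjusted p = 0.0875) was called lower. By genotype in eWAT 1 of 10 was called, against 19.9% of all genes, Ak3, higher (0.43, adjusted p = 0.0834). Slc25a4, the ADP/ATP carrier of heart and muscle, had means of 261, 273 and 353 CPM in WT ND, WT HFD and Acod1-/- HFD eWAT and was not called by genotype there (0.37, adjusted p = 0.168). Phospho1, another phosphatase that hydrolyses phosphocholine and phosphoethanolamine, stayed at low means of 0.203 to 1.59 CPM over the 6 groups.

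Of the phosphate and pyrophosphate genes, the phosphate transporter Slc20a2 was called lower by diet (-1.01) and higher by genotype (0.48, adjusted p = 0.0385) in eWAT, with 2 of 4 tested genes called higher and 1 lower by diet (51.8% of all genes in either direction). In iWAT 2 of 4 were called lower by diet, Enpp1 (-1.75), which makes pyrophosphate, and Slc20a2 (-0.31), and none higher (50.1% of all genes in either direction). Among the genes of UCP1 and calcium cycling, 5 of 10 were called lower and 2 higher by diet in iWAT, against 24.2% and 25.9% of all genes. Ucp1 was at 2.39, 113 and 582 CPM in WT ND iWAT, between 0.38 and 2.06 CPM in WT HFD iWAT and at 0, 4.17 and 9.76 CPM in Acod1-/- HFD iWAT (diet log2 fold change -7.79, adjusted p = 0.00237). The chow-fed library with the least Ucp1 was WT ND 1, the muscle-rich one. The summed level of 6 brown adipocyte genes, Ucp1 among them, was 180, 456 and 1346 CPM in these 3 libraries and between 58.6 and 107 CPM in WT HFD iWAT. Ppargc1a (-1.03), Cidea (-2.87), Dio2 (-2.11) and the adrenergic receptor Adrb3 (-1.88) were also lower by diet in iWAT. The 2 called higher there were Prdm16 (0.78) and Ryr2 (4.10). In eWAT 3 of 9 were called higher and 3 lower by diet, against 24.8% and 26.9% of all genes, with Adrb3 lower by diet (-2.60) and higher by genotype (2.26, adjusted p = 0.0144), and Dio2 higher by diet (2.22) and lower by genotype (-1.56, adjusted p = 0.0827). None of these lists had a gene called by genotype in iWAT. The median log2 fold changes by diet of the supply, exchange, phosphate and thermogenesis lists were -0.12, 0.19, -0.23 and -0.07 in eWAT (-0.04 over all genes tested) and 0.35, 0.10, -0.11 and -0.55 in iWAT (0.0043 over all genes tested).

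The genes most like each creatine gene over the 6 group means, among 11039 protein-coding genes averaging 5 CPM or more across the libraries, were found by the root mean square difference of centred log2 levels. Ckb lay closest to Igf2bp2 (0.12) and C77080 (0.14), Slc6a8 to Fam129b (0.10), Cacna1d (0.11) and Fblim1 (0.12), and Gatm to Clic1 (0.083), Prcp (0.10) and Ccna2 (0.11). Gamt lay closest to Tspan17 (0.17), Rtl8a (0.18) and Pkp2 (0.20). Ckmt2 lay at 0.25 from Haao and at 0.43 and 0.44 from Neb and Myh2, both genes of the muscle sarcomere, and Alpl at 0.10 from Elmod3. These are descriptions over 6 means from the same libraries, without a test.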

How the data were processed

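Per the labels and the study's methods, the authors extracted RNA with TRIZOL, made directional mRNA libraries, trimmed reads with cutadapt and aligned them with STAR to GRCm38. The counting program and its use of strand are not given in the sources used here. For each library the authors deposited counts of reads per gene (31.4 M to 52.3 M, median 42.1 M), 5 classes of uncounted reads, which were kept out (6.41% to 11.9% on no feature), and 2 columns of FPKM, which the authors computed from counts and cDNA length and which were not tested. GENCODE vM21 gave symbols for 54723 of 54752 gene IDs.

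The genes, marker lists, pathway lists and tests were chosen with earlier results of these data known. Counts were fitted in R 4.3.3 with edgeR 4.0.16 (TMM normalisation, mean level of 1 CPM or more, quasi-likelihood test, Benjamini-Hochberg adjustment over all genes tested, called under 0.1), with 3 groups per depot, or 6 groups over 25 libraries for contrasts between depots. Genes under the filter were compared by two-sided exact permutation tests in scipy 1.17.1 on log2 CPM with a prior count of 2. CPM in the text are per TMM-normalised library size. Groups are called apart when no library of one lies within the range of the other. Promoters are RefSeq windows. The named genes were the 7 members, the called genes of the 4 pathway lists with Ckm, Ucp1, Slc25a4 and Phospho1, and the 3 genes most like each member with a mean of at least 1 CPM; some of these are not reported here. Alternatives were no filter, 1 CPM in every library, DESeq2 size factors, the DESeq2 1.42.0 Wald test, an adjusted p under 0.05, only the groups compared, a block for library number, and each library left out; the series of library numbers, HFD libraries of series 1 alone, and 3 marker-rich libraries left out were further ones, the last chosen after seeing the data.

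On simulated counts with 200 changed genes, edgeR called 56% at a log2 change of 1 and 88% at 2 for eWAT genotype (14936 genes), and 42% and 81% for iWAT genotype (14801 genes). Of the calls, 10% were false for eWAT genotype and 13.4% for iWAT genotype. These counts were drawn around 1 mean per gene, without libraries rich in another tissue. The shares therefore need not hold for the real libraries, where iWAT genotype gave 0 calls. No library was a copy of another, chi-square over its degrees of freedom being at least 30.9 within groups. Intervals and limits from counts would cover counting error only.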

Additional observations from a re-analysis of the deposited data

Results flagged for a closer look

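Of 27 combinations of a creatine gene and a group of 4 or 5 libraries, 6 held an outlying library by Dixon's test. Chance alone gives about 1 in 20 for independent, normally spread values. These were linear CPM, some near 0, and combinations share libraries, so the 6 cannot be read as an excess. Ckb in eWAT WT HFD 1 was at 301 CPM against 144 in the next library (gap over range 0.731), and Slc6a8 in eWAT WT ND 1 at 41.02 against 28.9 CPM (0.898). Gamt in eWAT Acod1-/- HFD 2 was at 120 against 64.6 CPM (0.775), and Ckmt2 in the same library at 0.460 against 0.0266 CPM (0.942). Ckmt2 in iWAT WT HFD 1 was at 1.95 against 0.280 CPM (0.856), and Ckmt1 in eWAT WT HFD 4 at 0.672 against 0.362 CPM (0.779).

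For 3 genes the response to diet differed between eWAT and iWAT by the interaction test. With the marker-rich libraries left out, neither Gatm nor Gamt was called. The call of Gatm was also lost without eWAT WT HFD 1 or iWAT WT ND 2. The difference of log2 fold changes was 1.52 for Gatm and -1.15 for Gamt. It was 9.48 for Ckmt2 (SE 3.51, adjusted p = 0.0605), a fitted value that rests on eWAT WT ND libraries at 0 counts and on iWAT WT ND 1, so that its size is no measure of the change.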

How the results depend on the processing

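The 23 results called for a creatine gene were refitted under 597 combinations of result and setting, of which 549 kept the call, 48 lost it and none reversed. In another 12 combinations Ckmt2, called in 4 comparisons, fell below the filter and could not be tested, as without iWAT WT ND 1. Of the 23, 10 were tested and called under every setting. With the series of library numbers as a term, the number of creatine genes called was 1 for eWAT diet, 0 for eWAT Acod1-/- HFD against WT ND, and 1 for both iWAT comparisons with WT ND. For iWAT Acod1-/- HFD against WT ND it was also 1 with 1 CPM in every library, only the groups compared, an adjusted p under 0.05 or the marker-rich libraries left out. For the interaction of diet and depot it was 0 with those libraries left out, and for that of genotype and depot it was 1 by DESeq2. With 1 library left out at a time, it ran from 2 to 4 for eWAT diet, 0 to 1 for eWAT Acod1-/- HFD against WT ND, 2 to 3 for iWAT diet, 1 to 2 for iWAT Acod1-/- HFD against WT ND, 3 to 4 and 2 to 3 between depots in WT ND and WT HFD, 1 to 3 for diet and depot and 0 to 1 for genotype and depot. It was 3 in every fit for eWAT genotype.

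Library numbers were not taken as pairs, since the sources used here give no pairing. Of 33 same-numbered pairs, 17 had deviations correlated over 0.1 (-0.305 to 0.493), which does not settle whether the numbers mark pairs. Between depots, WT HFD 1 and 4 reached 0.346 and 0.493, and whether the 2 depots share mice is not given in the sources used here. The tests between depots took the libraries as independent and would not account for shared mice. With the replicate block, 1 creatine gene was called for iWAT Acod1-/- HFD against WT ND, and Gamt by eWAT diet (0.63, adjusted p = 0.131) and Ckmt2 by iWAT diet (-4.10, adjusted p = 0.130) were not called. Ckmt2 by iWAT genotype was 0.92 with the block.

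Uncalled log2 fold changes that turned direction were, with the series as a term, Alpl by eWAT diet (0.26) and in eWAT Acod1-/- HFD against WT ND (0.41), Ckb (-0.10) and Gatm (-0.26) by iWAT diet, and, with no filter, Ckmt2 by eWAT genotype (0.51). With the marker-rich libraries left out they were Ckb (-0.066), Gamt (0.074) and Alpl (-0.12) by iWAT genotype, Alpl in iWAT Acod1-/- HFD against WT ND (-0.38), Slc6a8 for diet and depot (-0.19) and Alpl for genotype and depot (0.25). With 1 library left out, values ran from -0.11 to 0.42 for Alpl by eWAT genotype, from -0.066 to 0.29 for Ckb, -1.25 to 1.42 for Ckmt2, -0.18 to 0.085 for Gamt and -0.10 to 1.13 for Alpl by iWAT genotype, and from -0.44 to 0.088 for Gatm and -0.40 to 0.83 for Alpl in iWAT Acod1-/- HFD against WT ND. Between depots they ran from -0.17 to 0.36 for Gatm in Acod1-/- HFD, from -0.19 to 0.46 for Slc6a8 and -0.42 to 0.041 for Alpl by diet, and from -1.98 to 2.37 for Ckmt2 and -0.97 to 0.26 for Alpl by genotype. The permutation differences of Ckmt1 ran from -0.40 to 0.82 in eWAT and -0.52 to 2.32 in iWAT Acod1-/- HFD against WT ND and from -1.46 to 1.38 between depots in Acod1-/- HFD, and that of Ckmt2 by eWAT genotype from -0.66 to 0.40. The cause of these shifts was not tested.

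Over all genes, iWAT genotype gave 0 calls, 77 with no filter, 91 with 1 CPM in every library, 5 with DESeq2 size factors, 4 with the series as a term and 1072 by DESeq2, and eWAT genotype gave 2976, 1717 at an adjusted p under 0.05, and 1709 to 4238 with 1 library left out. Ckmt2 in eWAT had at most 12 counts in a library, and the part of sequencing depth in this was not tested.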
